A study of Mus musculus with 6 samples.

Results

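Nuclear receptors are transcription factors that bind small lipophilic ligands, such as fatty acids, retinoic acid, sterols, bile acids, steroids and thyroid hormone, and act on genes through short DNA elements. Many of them pair with a retinoid X receptor, and they recruit coactivators or corepressors that set whether a target gene is transcribed. In the intestinal epithelium they link diet, bile and hormones to the absorption of fat, the disposal of foreign compounds and the renewal of crypts. Described here are 34 genes of 47643 in the deposited table, 27 for receptors and 7 for coregulators, chosen by symbol from a named list. Earlier results of these data were known at that choice.

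Messenger RNA of the intestine of male C57BL/6 mice, 7 to 8 weeks old, was sequenced in 6 libraries. All mice received tamoxifen and a diet with 60% fat for 2 weeks. The 3 MycΔIE, ERT2 libraries (Myc-deleted) come from mice whose label gives an inducible deletion of Myc, and the 3 Mycfl/fl libraries (control) from mice with the floxed gene. ERT2 is a hormone-binding tag that lets tamoxifen activate a recombinase fused to it. The labels name neither the promoter of the recombinase nor whether the controls carry it, so loss of Myc and activity of the recombinase cannot be told apart. The labels do not say that each library is a separate animal, so the p-values below measure the spread between libraries.

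Library totals ranged from 9956938 to 11328693 expected counts, and 3 counts, the upper limit that a count of 0 allows, equal 0.265 to 0.301 CPM. CPM values are counts scaled to library size by TMM factors. The extraction protocol names liver where the other labels name intestine. The ileal bile acid binding protein gene Fabp6 stood at 10559 ± 951 CPM in Myc-deleted and 11004 ± 1462 CPM in control libraries (SD, n = 3 each), and the hepatocyte gene Alb at 0.582 ± 0.433 CPM in Myc-deleted and 2.61 ± 0.667 CPM in control libraries. Myc, the gene of a transcription factor for growth, was at 3.29, 4.36 and 5.81 CPM in Myc-deleted libraries 1 to 3, against 5.86, 6.05 and 6.03 CPM in control libraries 1 to 3. Its difference did not pass (log2 fold change -0.41 ± 0.22 SE, edgeR adjusted p = 0.318; two-sided exact permutation p = 0.1, the smallest that 3 against 3 can give). The level of Myc therefore does not check the label of Myc-deleted library 3, which stood nearly at the control level.

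The comparison asks which of these genes differ in the intestine of Myc-deleted mice. In Myc-deleted intestine 3 of the 32 tested genes fell and 0 rose. The fallers were Ppard, which encodes the fatty acid receptor PPARδ, Nr3c1, the glucocorticoid receptor gene, and Thrb, a thyroid hormone receptor gene, and they were lower by 20.3 to 31.2%. The other 29 tested genes did not pass, and Rarb and Nr2f1 had too few counts to be tested. A gene passed at a Benjamini-Hochberg adjusted p below 0.05 in the quasi-likelihood test of edgeR over all 12720 tested genes, and fold changes are log2 values of Myc-deleted over control with their standard error (SE).

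Of all tested genes 7.95% passed, 4.22% higher and 3.73% lower, so 3 of 32 (9.38%) is a share near that of all genes. By unadjusted p below 0.05, 3 genes of the set were higher and 7 lower, where 22.2% of all tested genes passed that limit, 11.7% higher and 10.4% lower. DESeq2 called 1 gene of the set higher and limma voom 0. The median log2 fold change was -0.03 over the set, with 17 genes negative and 15 positive, and -0.0021 over all tested genes. The groups did not overlap for 10 of the 32 genes, against a background of 27.8% of the tested genes. In 2 of them (6.25%) all Myc-deleted libraries were above the controls, where 14.0% of the tested genes were, and in 8 (25%) all were below, where 13.7% were. Omitting 1 library at a time left 0 fallers when it was control 1, control 3 or Myc-deleted 3, and 1 when it was control 2 (Ppard) or Myc-deleted 2 (Nr5a2). It gave 1 riser when it was control 1 (Pparg) or Myc-deleted 1 (Nr1i3). Fewer cells of a type and less RNA per cell cannot be told apart in these bulk libraries.

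**Figure D1:**
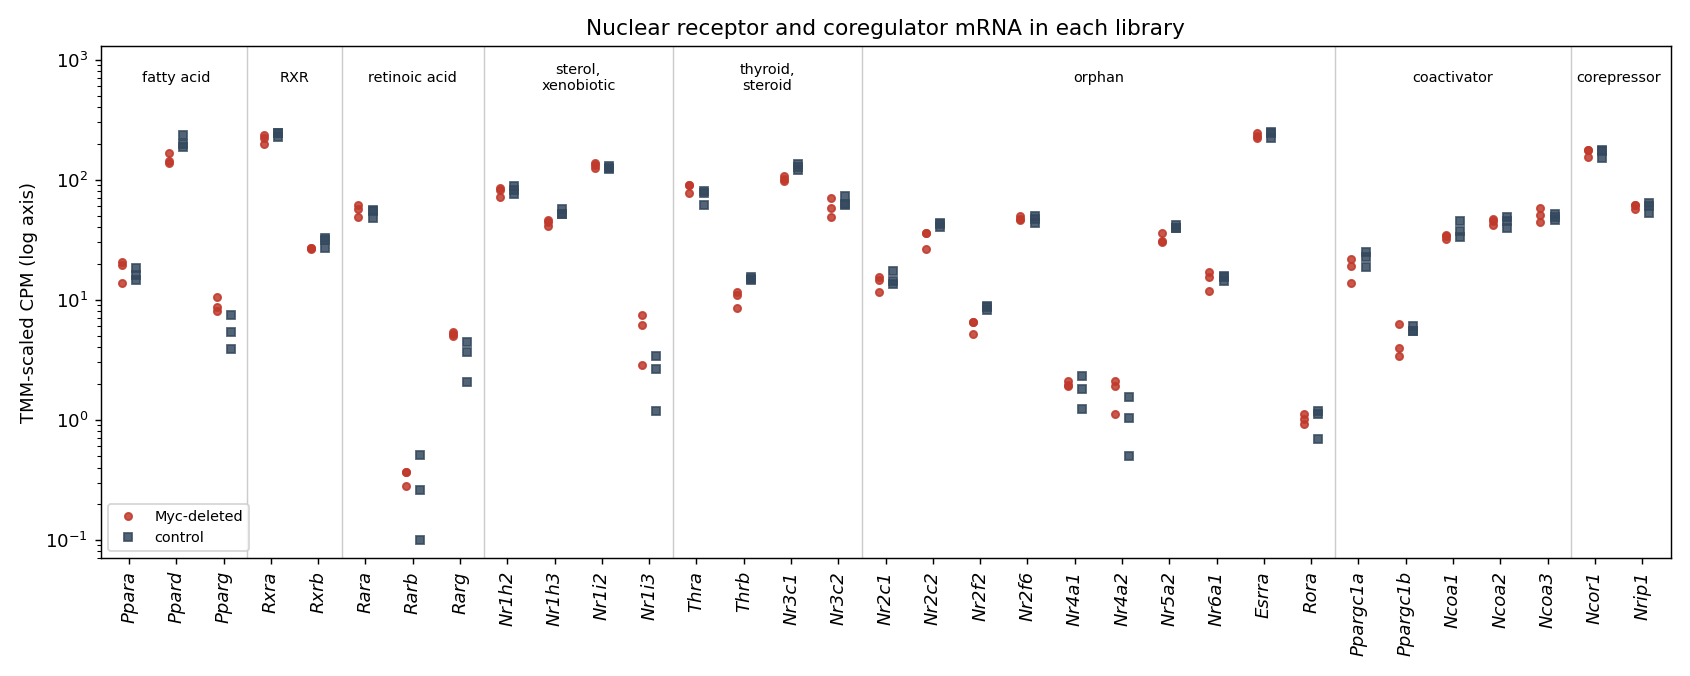
Level of 33 of the 34 genes in every library, in TMM-scaled CPM on a log axis, grouped by role. Circles are the 3 Myc-deleted and squares the 3 control libraries, and Nr2f1, at 0 counts in all libraries, cannot be drawn. The levels run from 0.0994 CPM for Rarb to 250 CPM for Esrra.

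The fatty acid receptors share a ligand class but differ in tissue. Ppard, expressed in most tissues, stood at 168, 144 and 137 CPM in Myc-deleted libraries 1 to 3, against 199.9, 189 and 234 CPM in control libraries 1 to 3. All Myc-deleted values were below all control values. The gene (ENSMUSG00000002250.15, chromosome 17, 28232700 to 28301474, GRCm38) fell by 0.47 ± 0.11 SE on the log2 scale (edgeR adjusted p = 0.0240). It passed with DESeq2, limma voom and each other scaling and filter (adjusted p = 0.00152 to 0.0246). It did not pass when control 1 (adjusted p = 0.0575), control 3 (0.0795), Myc-deleted 2 (0.0879) or Myc-deleted 3 (0.0716) was omitted.

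The bases before the start of Ppard are shown because Ppard has the lowest adjusted p of the set and Myc, paired with Max, binds the E-box CACGTG. The window (RefSeq, GRCm38.p6, chr17:28232504-28232753, plus strand) covers positions -250 to -1 from the annotated start and holds neither CACGTG nor the receptor element AGGTCA, so it has no capitals. No match says only that these letters are not in this window.
Ppard: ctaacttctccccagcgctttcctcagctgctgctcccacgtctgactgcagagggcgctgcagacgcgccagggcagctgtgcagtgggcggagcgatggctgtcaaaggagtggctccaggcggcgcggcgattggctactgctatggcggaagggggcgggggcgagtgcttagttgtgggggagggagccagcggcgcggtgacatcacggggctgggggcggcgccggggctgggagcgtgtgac

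Pparg, known best as the regulator of fat cell formation, was the member of this family that was higher in each Myc-deleted library than in any control. Its levels were 8.05, 10.6 and 8.67 CPM in Myc-deleted libraries 1 to 3 and 7.45, 3.89 and 5.41 CPM in control libraries 1 to 3. The difference did not pass (0.71 ± 0.23 SE, edgeR adjusted p = 0.0998), although it did when no count filter was applied (adjusted p = 0.0407) and when control 1 was omitted (0.0437). Of 7 fat cell genes, Adipoq, Plin1, Lep and Retn were at 0 counts in all 6 libraries and Cfd was near 0. The summed level of the 7 was 143 to 172 CPM in Myc-deleted and 117 to 149.96 CPM in control libraries, nearly all of it from Cidec, which rose (0.51 ± 0.10 SE, edgeR adjusted p = 0.0126), and Lipe, which did not pass (0.03 ± 0.15 SE, edgeR adjusted p = 0.932). The part of these genes in the values of Pparg was not tested. Ppara, the receptor of fatty acid breakdown in liver and gut, was at 20.6, 19.3 and 13.8 CPM in Myc-deleted and 16.2, 14.6 and 18.4 CPM in control libraries, with overlapping groups (0.13 ± 0.16 SE, edgeR adjusted p = 0.686).

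Levels of different genes are compared per kilobase of annotated exon, from which the share of each receptor in its family follows. Ppard made up 73.4, 68.9 and 73.6% of the PPAR family in Myc-deleted libraries 1 to 3, against 79.8, 83.0 and 82.4% in control libraries 1 to 3. Pparg made up 8.96, 12.9 and 11.8% in Myc-deleted libraries and 7.57, 4.36 and 4.86% in controls, and Ppara 14.5 to 18.2% in Myc-deleted libraries and 12.6 to 12.7% in controls. None of these 3 shares overlapped between the groups, and Ppard remained the main PPAR gene in every library. Shares were also without overlap in the pairs Thra and Thrb, Nr1h2 and Nr1h3, and Nr2c1 and Nr2c2. They overlapped in the other families compared, those of Rxra, Rara, Nr1i2, Nr3c1, Ppargc1a and Ncoa1. The shares add up to the whole family, so a lower share of Ppard goes with a higher share of the rest. They are thus not separate results, and the levels of Ppara itself overlapped between the groups. The shares depend on the exon lengths used and carry no test.

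**Figure D2:**
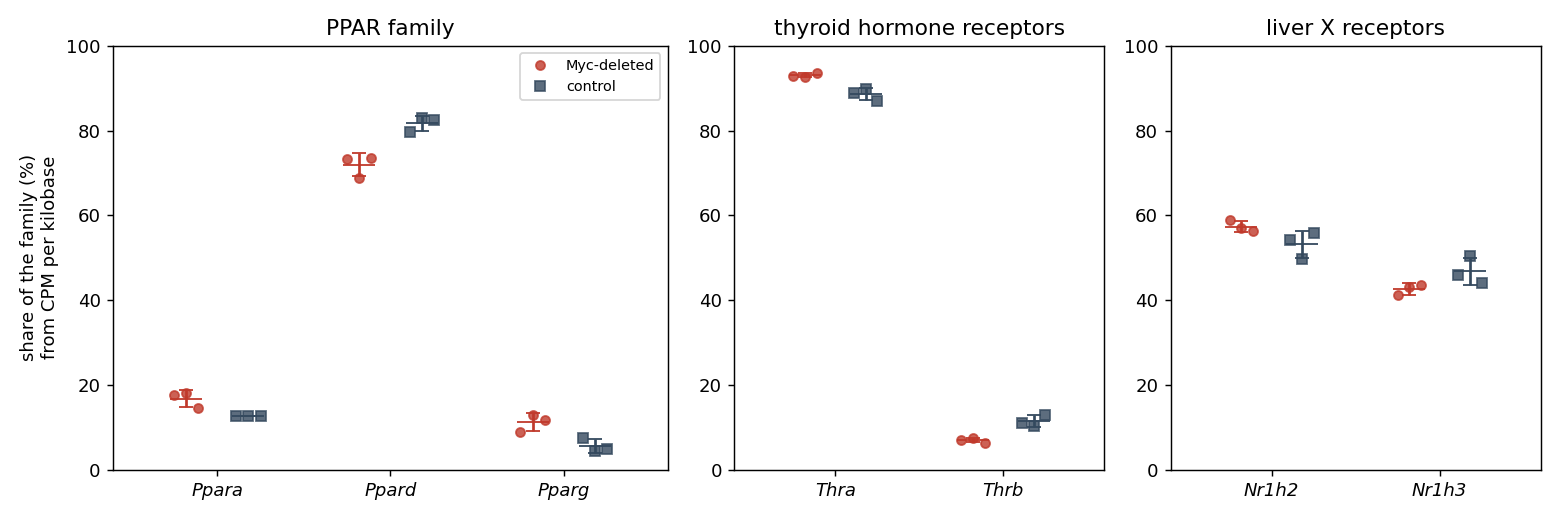
Share of each gene in the PPAR, thyroid hormone receptor and liver X receptor families, in percent of the family's summed CPM per kilobase. The families drawn are ones whose shares did not overlap between the groups. Those of Nr2c1 and Nr2c2, not drawn, did not overlap either, and the other families compared overlapped. Points are libraries (circles Myc-deleted, squares control), with mean and SD. Ppard is at 68.9 to 73.6% in Myc-deleted and 79.8 to 83.0% in control libraries, and Thrb at 6.39 to 7.39% in Myc-deleted and 10.2 to 12.98% in control libraries.

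The retinoid X receptors are the shared partners of most of the receptors named here. Rxra was at 237, 224 and 197 CPM in Myc-deleted libraries 1 to 3 and 244, 226 and 244 CPM in control libraries 1 to 3, and did not pass (-0.12 ± 0.09 SE, edgeR adjusted p = 0.473). Rxrb was at 26.3, 26.8 and 26.9 CPM in Myc-deleted libraries, each just below the controls at 27.1, 31.6 and 32.9 CPM, and did not pass (-0.19 ± 0.10 SE, edgeR adjusted p = 0.276). Per kilobase, Rxra supplied 84.2 to 86.8% of the pair in Myc-deleted and 83.9 to 86.7% in control libraries.

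Among the retinoic acid receptors, which mediate the action of vitamin A, Rara was the main gene with 89.7 to 91.5% of the family per kilobase in Myc-deleted and 91.1 to 95.6% in control libraries. Its levels of 55.9 ± 6.22 CPM in Myc-deleted and 53.1 ± 4.16 CPM in control libraries (SD, n = 3 each) gave a difference that did not pass (0.07 ± 0.10 SE, edgeR adjusted p = 0.732). Rarg was at 4.94, 5.39 and 5.17 CPM in Myc-deleted libraries, above all controls at 3.68, 4.41 and 2.04 CPM, and did not pass (0.60 ± 0.27 SE, edgeR adjusted p = 0.221). Rarb had 4, 3 and 4 counts in Myc-deleted and 1, 3 and 5 counts in control libraries. At this depth no difference in Rarb was detectable, and 1793 of its exon bases are shared with Top2b on the opposite strand.

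The sterol and xenobiotic receptors are the liver X receptors, which sense oxysterols, and the receptors PXR and CAR, which sense drugs and other foreign compounds. Nr1h3 (LXRα) was at 44.6, 46.4 and 41.4 CPM in Myc-deleted libraries 1 to 3, all below the controls at 51.8, 57.5 and 52.2 CPM. It did not pass (-0.29 ± 0.08 SE, edgeR adjusted p = 0.0708) but did with upper-quartile scaling (adjusted p = 0.0466). Nr1h2 (LXRβ) overlapped, at 79.4 ± 7.26 CPM in Myc-deleted and 81.7 ± 6.26 CPM in control libraries (SD, n = 3 each), and did not pass (-0.04 ± 0.09 SE, edgeR adjusted p = 0.851). Per kilobase, Nr1h3 made up 41.1, 43.1 and 43.7% of the pair in Myc-deleted libraries 1 to 3, against 45.9, 50.4 and 44.2% in control libraries 1 to 3, without overlap.

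Nr1i2, the gene of PXR, was among the most abundant of the set per kilobase, at 51.7 ± 2.36 CPM per kilobase in Myc-deleted and 49.2 ± 1.49 CPM per kilobase in control libraries (SD, n = 3 each). Its difference did not pass (0.07 ± 0.07 SE, edgeR adjusted p = 0.618). Nr1i3, the gene of CAR, had the widest fold change of the set. It was at 2.84, 7.52 and 6.18 CPM in Myc-deleted and 1.19, 3.37 and 2.66 CPM in control libraries. The groups overlapped, with Myc-deleted library 1 below control library 2, and the difference did not pass (1.18 ± 0.41 SE, edgeR adjusted p = 0.124). It passed with DESeq2 (adjusted p = 0.0444), when no count filter was applied (0.0321) and when Myc-deleted 1 was omitted (0.0344). The exons of Nr1i3 share 3304 bases with Tomm40l on the opposite strand. The libraries are stranded, but the strand setting of the counting is not given in the sources used here, so reads of the pair may not be fully separated.

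The E-box CACGTG, which reads the same on both strands, stood in the promoter windows of 3 of the 29 genes with an entry in the RefSeq table (10.3%), namely Nr1i3, Rara and Thrb, and in 8.09% of all 27025 gene symbols of that table. A window runs from 250 bases before to 50 after an annotated start. A gene counts if any of its windows matches, with 44 windows for the 29 genes and 32851 for all symbols. The shares by gene do not adjust for the number of windows. The element AGGTCA, in either orientation, stood in 7 of the 29 (24.1%: Nr5a2, Nr6a1, Pparg, Rara, Rarg, Rxra and Thrb) and in 18.1% of all symbols. The direct repeat of AGGTCA with 1 base of any kind between the copies, bound by pairs of a PPAR and RXR, stood in 0 of the 29 and in 0.0481% of all symbols. Not matched by symbol were Ncoa2, Ncoa3, Nr3c1, Ppargc1b and Thra. The stretches around the E-box of Nr1i3 (chr1:171213720-171213758, plus strand) and Rara (chr11:98937681-98937717, plus strand) and around AGGTCA before the starts of Pparg (chr6:115361089-115361143 and chr6:115362313-115362348, plus strand) are shown to let the sites be compared, with CACGTG and AGGTCA in capitals. A match of letters is a description and not a bound site.
Nr1i3: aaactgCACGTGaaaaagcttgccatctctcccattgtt
Rara: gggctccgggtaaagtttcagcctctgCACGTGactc
Pparg, upstream start: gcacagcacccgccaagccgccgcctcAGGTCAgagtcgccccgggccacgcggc
Pparg, downstream start: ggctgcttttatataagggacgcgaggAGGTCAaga

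The thyroid hormone and corticosteroid receptors held the other pair of fallers. Thrb (ENSMUSG00000021779.16, chromosome 14, 17660261 to 18038090, GRCm38) was at 10.9, 11.5 and 8.49 CPM in Myc-deleted libraries 1 to 3, against 15.4, 14.7 and 14.8 CPM in control libraries 1 to 3. The controls lay close together and the Myc-deleted libraries were all lower. Thrb fell by 0.54 ± 0.14 SE on the log2 scale (edgeR adjusted p = 0.0403). It did not pass with DESeq2 (adjusted p = 0.0653) or in any run with 1 library omitted (adjusted p = 0.0504 to 0.113).

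Thra, the main thyroid hormone receptor of the gut, was at 89.6, 89.99 and 77.5 CPM in Myc-deleted and 77.3, 80.6 and 61.9 CPM in control libraries, and did not pass (0.23 ± 0.11 SE, edgeR adjusted p = 0.271). Thrb accordingly made up 7.04, 7.39 and 6.39% of the pair per kilobase in Myc-deleted libraries 1 to 3, against 11.05, 10.2 and 12.98% in control libraries 1 to 3. The 3' end of Thra shares 263 exon bases with the clock gene Nr1d1 on the opposite strand, which was itself at 226 ± 20.997 CPM in Myc-deleted and 166 ± 27.3 CPM in control libraries. The part of Nr1d1 reads in the count of Thra was not tested.

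The starts annotated for Thrb lie far apart. The windows before a pair of them are shown because the E-box stands in the downstream window (chr14:17981394-17981643, plus strand, 193 bases before the start) and AGGTCA in the upstream window (chr14:17660710-17660959, plus strand, 184 bases before the start). Capitals mark these elements. Gene-level counts do not tell which start was used.
Thrb, downstream start: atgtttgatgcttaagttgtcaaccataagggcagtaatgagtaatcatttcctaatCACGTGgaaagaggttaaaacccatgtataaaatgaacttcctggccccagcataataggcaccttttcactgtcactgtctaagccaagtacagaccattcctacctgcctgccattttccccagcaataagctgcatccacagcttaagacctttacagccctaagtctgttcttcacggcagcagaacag
Thrb, upstream start: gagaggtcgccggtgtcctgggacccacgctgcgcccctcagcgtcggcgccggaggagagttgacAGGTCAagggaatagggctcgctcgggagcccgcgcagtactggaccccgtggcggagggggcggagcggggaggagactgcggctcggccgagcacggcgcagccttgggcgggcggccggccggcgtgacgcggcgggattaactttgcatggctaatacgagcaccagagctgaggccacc

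Nr3c1 (ENSMUSG00000024431.14, chromosome 18, 39410545 to 39519421, GRCm38) encodes the glucocorticoid receptor, present in nearly all cell types. It was at 107, 101 and 97.4 CPM in Myc-deleted libraries 1 to 3, all below the controls at 128, 121 and 134 CPM. It fell by 0.33 ± 0.08 SE on the log2 scale (edgeR adjusted p = 0.0272) and passed with DESeq2, limma voom and each other scaling and filter (adjusted p = 0.0148 to 0.0300). With 1 library omitted it passed only when that was Myc-deleted 1 (adjusted p = 0.0318), and the adjusted p was 0.0606 to 0.0949 for Myc-deleted 2 and 3 and each control. Nr3c2, the mineralocorticoid receptor gene, was at 70.1, 58.6 and 48.4 CPM in Myc-deleted and 62.1, 61.98 and 72.7 CPM in control libraries, with overlapping groups (-0.15 ± 0.13 SE, edgeR adjusted p = 0.549).

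Among lists of cell type markers, the summed level of 9 epithelial genes was 22500 to 24151 CPM in Myc-deleted and 22121 to 24859 CPM in control libraries, and that of 14 leukocyte genes 404 to 463 CPM in Myc-deleted and 417 to 443 CPM in control libraries. The sum of 8 ileal enterocyte genes was 37288 to 45378 CPM in Myc-deleted and 28453 to 33409 CPM in control libraries, without overlap, and 3 of them, Fgf15, Fabp2 and Apoa1, rose (1 when control 2 was omitted). The sum of 8 fibroblast genes was 103 to 122 CPM in Myc-deleted and 76.2 to 96.0 CPM in control libraries, with 1 riser, Pdgfrb. The sum of 8 smooth muscle genes was 16.4 to 21.3 CPM in Myc-deleted and 17.3 to 96.4 CPM in control libraries. It was highest in control library 2. Of 6 tested genes 0 passed the threshold by edgeR and limma voom, and 1 was lower by DESeq2. By unadjusted p below 0.05, 3 were lower, where 10.4% of all tested genes were. All 6 had a negative fold change (median -1.27), and edgeR called 2 lower when control 3 was omitted and 3 when no count filter was applied. The sums of 8 endothelial genes (23.4 to 32.2 CPM in Myc-deleted and 24.4 to 29.3 CPM in control libraries) and 8 enteric neuron and glia genes (1.01 to 1.19 CPM in Myc-deleted and 0.795 to 1.38 CPM in control libraries) overlapped, as did that of 11 hepatocyte genes (209.5 to 262 CPM in Myc-deleted and 183 to 244 CPM in control libraries), of which Alb and Tat fell. Fallers of the hepatocyte list numbered 1 with DESeq2, 0 when control 2 or control 3 was omitted and 1 for control 1, Myc-deleted 2 or Myc-deleted 3. The sum of 8 pancreatic acinar genes was 6.77 to 7.99 CPM in Myc-deleted and 3.38 to 3.89 CPM in control libraries. Of the 8, Cela3b, Pnlip, Cpa1, Prss2 and Amy2b were at 0 counts in all 6 libraries. Only Cela1 had enough counts to be tested, and it was higher. The part of these lists in the differences above was not tested.

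**Figure D3:**
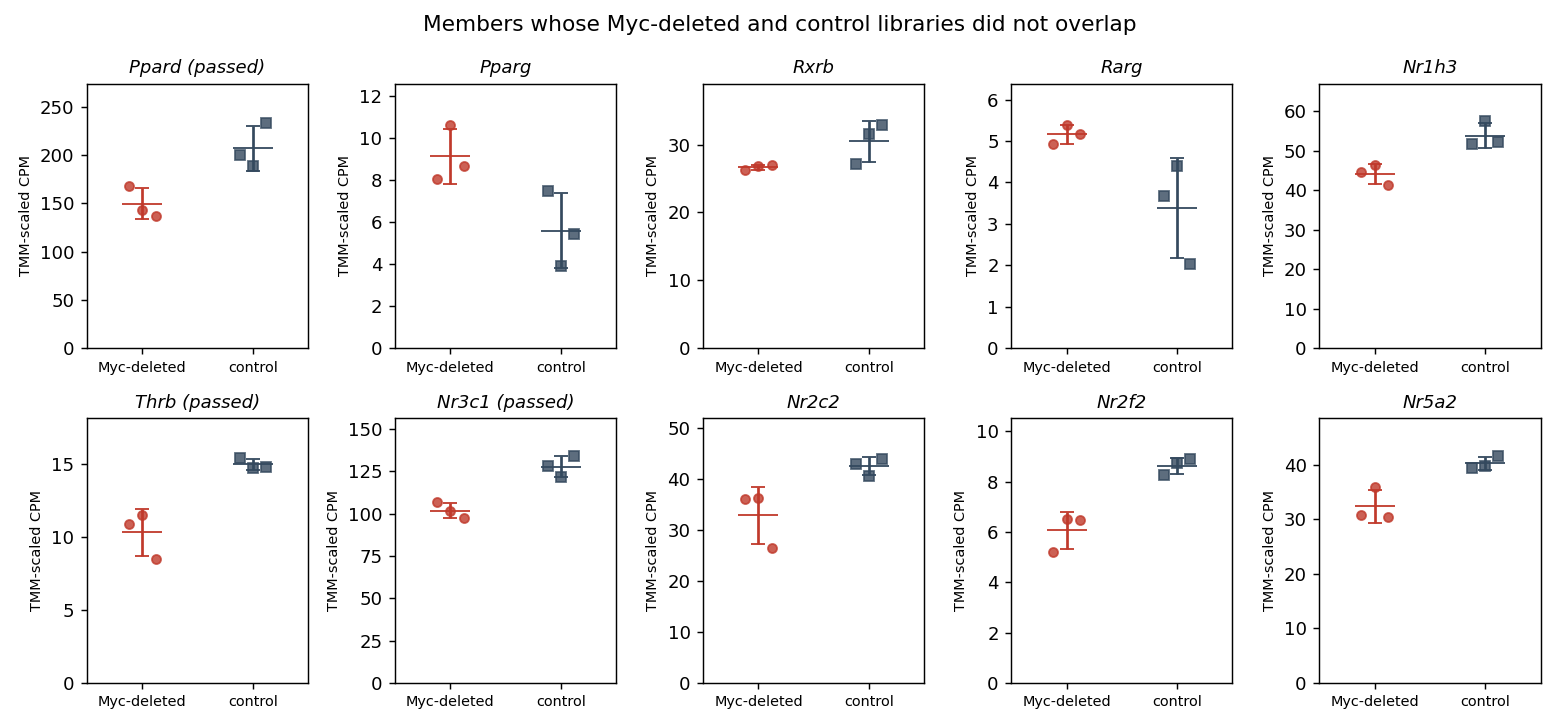
The 10 tested genes whose libraries did not overlap between groups, in TMM-scaled CPM from 0. Points are libraries (circles Myc-deleted, squares control), and bars give mean and SD. Ppard, Thrb and Nr3c1 passed the test, Pparg and Rarg were the pair with higher Myc-deleted libraries, and 27.8% of the genes tested had such groups.

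None of the 10 tested orphan receptor genes, whose natural ligand is unknown or debated, passed in edgeR, while 3 were lower by unadjusted p below 0.05, where 10.4% of all tested genes were, and 0 were called by DESeq2 or limma voom. Nr5a2, the gene of LRH-1, a factor of crypt renewal and local steroid synthesis, was at 30.8, 35.8 and 30.4 CPM in Myc-deleted libraries 1 to 3, all below the controls at 39.5, 39.8 and 41.6 CPM. It did not pass (-0.31 ± 0.09 SE, edgeR adjusted p = 0.0657) but did with upper-quartile scaling (adjusted p = 0.0440) and when Myc-deleted 2 was omitted (0.0470). Nr2f2, the gene of COUP-TFII, known from mesenchyme and endothelium, was at 5.22, 6.50 and 6.46 CPM in Myc-deleted libraries, below the controls at 8.25, 8.73 and 8.89 CPM (-0.51 ± 0.16 SE, edgeR adjusted p = 0.0849).

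Nr2c2, the gene of the testicular receptor TR4, was at 36.0, 36.2 and 26.4 CPM in Myc-deleted and 43.0, 40.5 and 43.9 CPM in control libraries, again without overlap and without passing (-0.37 ± 0.12 SE, edgeR adjusted p = 0.102). Its exons share 4590 bases with Mrps25 on the opposite strand. Its relative Nr2c1 was at 13.9 ± 2.06 CPM in Myc-deleted and 15.1 ± 2.01 CPM in control libraries (SD, n = 3 each), with overlapping groups (-0.12 ± 0.15 SE, edgeR adjusted p = 0.680). Nr2f1 had 0 counts in all 6 libraries, which allows up to 0.265 to 0.301 CPM.

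Esrra, whose product ERRα drives mitochondrial genes together with PGC-1α, was at 233, 245 and 224 CPM in Myc-deleted and 222, 246 and 249.9 CPM in control libraries (-0.03 ± 0.08 SE, edgeR adjusted p = 0.869). With 53.4 ± 2.38 CPM per kilobase in Myc-deleted and 54.5 ± 3.45 CPM per kilobase in control libraries it stood first in the order of levels, followed by Nr1i2, Rxra, Nr1h2 and Ppard in the mean of both groups. The ranges of Esrra and Nr1i2 over the 6 libraries overlapped, as did those of Nr1h2 and Ppard. The order of Nr1h2 and Ppard differed by group, with Ppard below Nr1h2 in each Myc-deleted library and above it in each control library. Nr2f6, a repressor of cytokine genes in T cells, was at 47.5 ± 1.78 CPM in Myc-deleted and 46.7 ± 3.12 CPM in control libraries (0.02 ± 0.08 SE, edgeR adjusted p = 0.899), and shares 1622 exon bases with Ocel1 on the opposite strand. The germ cell factor Nr6a1 was at 14.8 ± 2.66 CPM in Myc-deleted and 15.2 ± 0.792 CPM in control libraries (-0.04 ± 0.14 SE, edgeR adjusted p = 0.903).

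The immediate early receptor genes Nr4a1 and Nr4a2, induced within minutes by many stimuli, were at low levels. Nr4a1 was at 1.92, 1.95 and 2.12 CPM in Myc-deleted and 1.79, 2.33 and 1.23 CPM in control libraries, and Nr4a2 at 1.92, 1.11 and 2.12 CPM in Myc-deleted and 0.497, 1.04 and 1.53 CPM in control libraries. Neither passed (0.15 ± 0.31 SE and 0.75 ± 0.44 SE, edgeR adjusted p = 0.828 and 0.364). Of 18 other immediate early genes tested, such as Fosl2 and Klf4, 0 passed in edgeR and limma voom and 1 was higher by DESeq2. By unadjusted p below 0.05, 4 were higher, where 11.7% of all tested genes were. The DESeq2 call was Gadd45b, which edgeR also called higher when Myc-deleted 1 was omitted, while Fos was called higher when Myc-deleted 3 was omitted; both are named after their values were seen. Rora, which opposes REV-ERB at clock genes, was at 1.01 ± 0.0895 CPM in Myc-deleted and 1.003 ± 0.272 CPM in control libraries (0.03 ± 0.37 SE, edgeR adjusted p = 0.974).

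**Figure D4:**
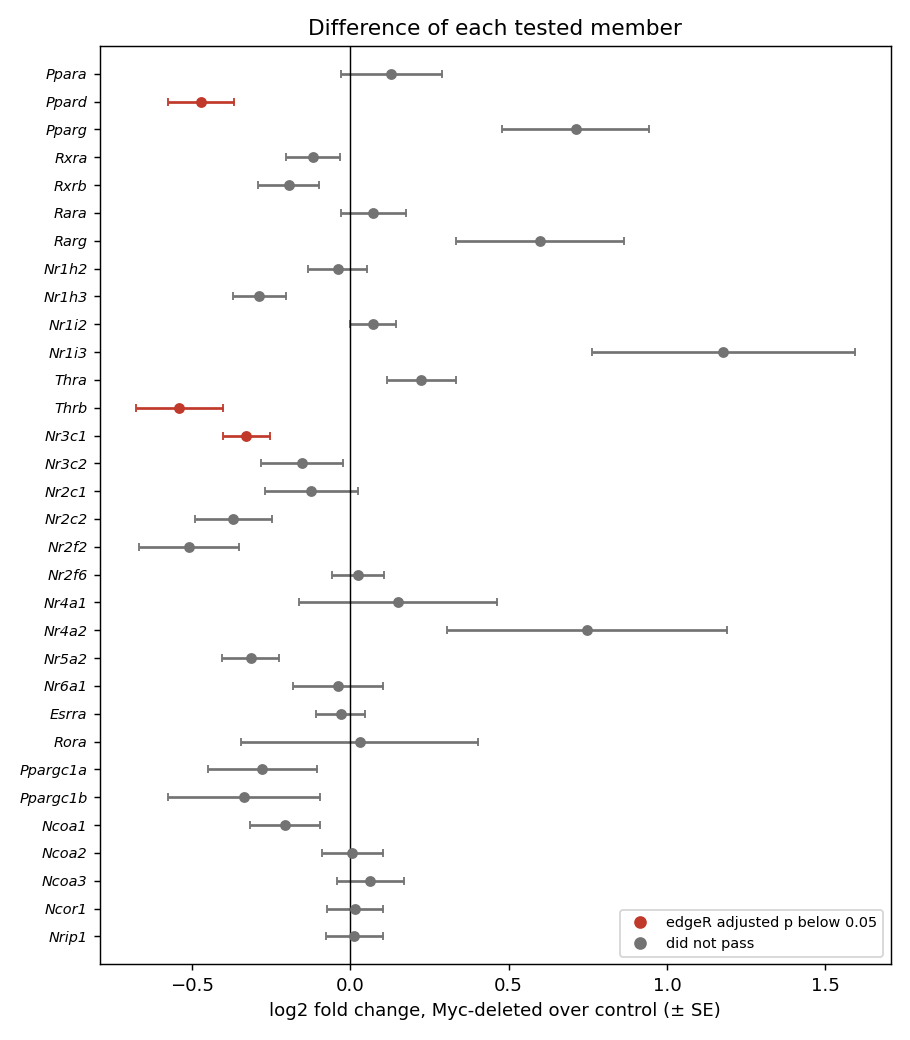
Log2 fold change of Myc-deleted over control for the 32 tested genes, with SE as bars, in the order of their roles. Ppard, Thrb and Nr3c1 passed the test, and Nr1i3 has the largest value at 1.18 with an SE of 0.41.

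The coregulators held no gene past the threshold in edgeR, DESeq2 or limma voom, and none had an unadjusted p below 0.05. Ppargc1a, the gene of the inducible coactivator PGC-1α of mitochondrial biogenesis, was at 19.2, 13.7 and 21.9 CPM in Myc-deleted and 18.8, 22.6 and 24.9 CPM in control libraries, with overlapping groups (-0.28 ± 0.17 SE, edgeR adjusted p = 0.387). Its relative Ppargc1b was at 3.93, 6.22 and 3.41 CPM in Myc-deleted and 6.06, 5.53 and 5.52 CPM in control libraries (-0.33 ± 0.24 SE, edgeR adjusted p = 0.463). Myc-deleted library 2 was the lowest of all 6 for Ppargc1a and the highest for Ppargc1b.

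The steroid receptor coactivators Ncoa1, Ncoa2 and Ncoa3 bring histone acetyltransferases to bound receptors. Ncoa1 was at 33.8, 34.5 and 32.3 CPM in Myc-deleted and 33.6, 37.4 and 45.05 CPM in control libraries (-0.21 ± 0.11 SE, edgeR adjusted p = 0.314). Ncoa2 was at 44.5 ± 2.31 CPM in Myc-deleted and 44.3 ± 4.54 CPM in control libraries, and Ncoa3 at 51.2 ± 6.86 CPM in Myc-deleted and 49.0 ± 3.004 CPM in control libraries (SD, n = 3 each). Per kilobase Ncoa3 was the main gene of the 3 in each library, with 45.7 to 51.6% in Myc-deleted and 44.1 to 47.8% in control libraries.

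Ncor1, the corepressor that carries histone deacetylase 3 to silent receptors, was at 177, 176 and 155 CPM in Myc-deleted and 178, 152 and 173 CPM in control libraries (0.01 ± 0.09 SE, edgeR adjusted p = 0.946). Nrip1, the gene of the ligand-dependent corepressor RIP140, was at 61.4, 61.0 and 57.0 CPM in Myc-deleted and 53.1, 64.0 and 60.7 CPM in control libraries (0.01 ± 0.09 SE, edgeR adjusted p = 0.951). The fold changes of Ncor1 and Nrip1 were thus below their SE.

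Receptors and coregulators outside the set gave 1 riser and 2 fallers. Of 8 other receptor genes tested, Nr0b2, whose product SHP lacks a DNA-binding domain and represses other receptors, rose, at 5.12, 9.66 and 7.196 CPM in Myc-deleted and 0.994, 1.47 and 1.12 CPM in control libraries (2.59 ± 0.31 SE, edgeR adjusted p = 0.00149). Vdr, the vitamin D receptor gene, fell, at 293, 268 and 241 CPM in Myc-deleted and 373, 349 and 382 CPM in control libraries (-0.46 ± 0.09 SE, edgeR adjusted p = 0.0118). Hnf4a, an enterocyte identity factor, was the most abundant at 1209 ± 51.3 CPM in Myc-deleted and 1243 ± 99.2 CPM in control libraries and did not pass (edgeR adjusted p = 0.841). Of 32 other coregulator genes tested, 1 passed, and the median log2 fold change was 0.04. This was Cited2, which binds the acetyltransferases CBP and p300, and it fell to 41.9 ± 2.33 CPM in Myc-deleted libraries, against 58.7 ± 6.36 CPM in control libraries (-0.49 ± 0.10 SE, edgeR adjusted p = 0.0143). Nr0b2 and Vdr passed in all 6 runs with 1 library omitted, while Cited2 did not pass when control 2 was omitted (adjusted p = 0.0633), which left 0 coregulator fallers. The clock receptor gene Nr1d1 (0.45 ± 0.12 SE, edgeR adjusted p = 0.0509) was called higher with DESeq2 and limma voom, and in edgeR when control 3 or Myc-deleted 3 was omitted. The bile acid receptor gene Nr1h4 was called lower when Myc-deleted 1 was omitted and was picked for naming with its values known.

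**Figure D5:**
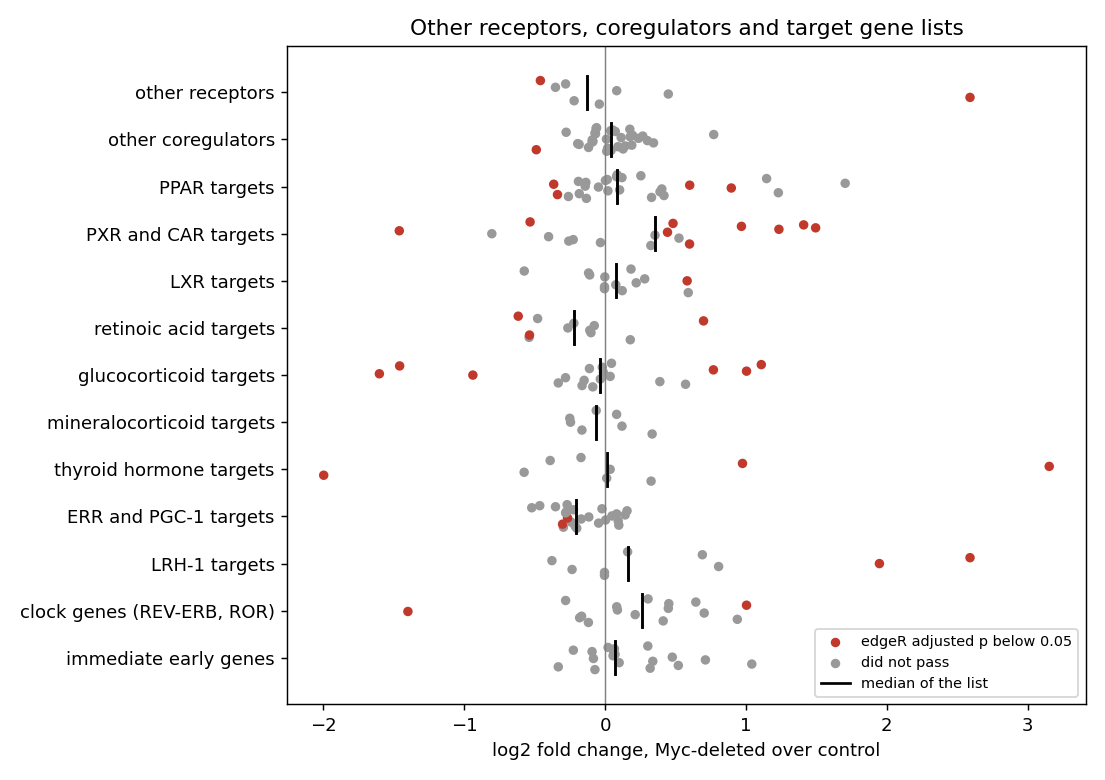
Log2 fold change of Myc-deleted over control for the tested genes of 13 lists (other receptors, other coregulators and target genes by receptor), 1 point per gene, with the list's median as a bar. Nr0b2 stands in the lists of other receptors and of LRH-1 targets. PXR and CAR targets have 7 risers and 2 fallers among 17 tested genes, where 4.22% of all tested genes were higher and 3.73% lower.

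Known target genes of the fallers were described from lists chosen by symbol, with earlier results of these data known. The background for the counts of each list is 4.22% higher and 3.73% lower among all tested genes. Of 26 PPAR target genes tested, 2 rose and 2 fell, with a median log2 fold change of 0.08. Angptl4, an inhibitor of lipoprotein lipase, rose to 133 ± 25.9 CPM in Myc-deleted, against 71.4 ± 15.1 CPM in control libraries (0.90 ± 0.17 SE, edgeR adjusted p = 0.0126), and Creb3l3, a factor of fasting metabolism, also rose (0.60 ± 0.12 SE, edgeR adjusted p = 0.0130). Ehhadh and Acadm, enzymes of peroxisomal and mitochondrial fatty acid oxidation, fell (-0.36 ± 0.07 SE and -0.34 ± 0.08 SE, edgeR adjusted p = 0.0166 and 0.0338). Angptl4 passed in all 6 runs with 1 library omitted, Creb3l3 and Ehhadh in 4 and Acadm in 1. With 1 library omitted, risers of the list numbered 1 for control 2 and Myc-deleted 2 and 5 for Myc-deleted 1, and fallers 0 for controls 1 and 2 and 1 for control 3 and Myc-deleted 2 and 3.

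Of 19 glucocorticoid receptor targets tested, 3 rose and 3 fell, with a median log2 fold change of -0.03. Tsc22d3, which encodes the glucocorticoid-induced leucine zipper, rose, at 93.2, 84.4 and 80.2 CPM in Myc-deleted and 31.7, 41.5 and 46.3 CPM in control libraries (1.11 ± 0.13 SE, edgeR adjusted p = 0.00138). The clock gene Per1 rose as well (1.005 ± 0.22 SE, edgeR adjusted p = 0.0231), as did the kinase gene Sgk1, at 429 ± 119 CPM in Myc-deleted and 252 ± 26.9 CPM in control libraries (0.77 ± 0.18 SE, edgeR adjusted p = 0.0273). The third faller, Tat, a tyrosine-degrading enzyme gene of the liver, is named after its values were seen (-1.46 ± 0.34 SE, edgeR adjusted p = 0.0276). The metallothionein genes Mt1 and Mt2, which bind zinc, fell (-0.94 ± 0.14 SE and -1.60 ± 0.29 SE, edgeR adjusted p = 0.00383 and 0.00973). Tsc22d3, Mt1 and Mt2 passed in all 6 runs with 1 library omitted, Per1 in 3 and Sgk1 in 1. Risers numbered 1 when control 1, control 2 or Myc-deleted 1 was omitted. Of 7 mineralocorticoid receptor targets 0 passed in edgeR and limma voom, and Ahnak, named after its values were seen, was higher by DESeq2. By unadjusted p below 0.05, 1 of the 7 was higher and 2 were lower. Of all tested genes 11.7% were higher and 10.4% lower at that limit.

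Of 9 thyroid hormone targets tested, 2 rose and 1 fell. Dio1, the deiodinase that converts thyroid hormone, fell, at 17.75, 13.3 and 12.9 CPM in Myc-deleted and 43.2, 67.5 and 64.8 CPM in control libraries (-1.998 ± 0.18 SE, edgeR adjusted p = 0.000552). The lactase gene Lct (3.15 ± 0.57 SE, edgeR adjusted p = 0.00915) and the malic enzyme gene Me1 (0.98 ± 0.20 SE, edgeR adjusted p = 0.0151) rose. Dio1 passed in all 6 runs with 1 library omitted, Lct in 5 and Me1 in 3. Risers numbered 0 when control 2 was omitted and 1 for control 3 or Myc-deleted 2, and fallers 2 for Myc-deleted 3. Fallers also numbered 2 with DESeq2, limma voom and upper-quartile scaling and 3 when no count filter was applied, and risers 1 with limma voom.

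Target genes of receptors that did not pass are described next. In the PXR and CAR list 7 of 17 tested genes rose and 2 fell, with a median log2 fold change of 0.35. Of all tested genes 4.22% were higher and 3.73% lower. By unadjusted p below 0.05, 10 of the 17 were higher and 4 lower, where 11.7% of all tested genes were higher and 10.4% lower. Cyp3a25, a drug-metabolizing cytochrome, fell, at 25.9, 23.6 and 15.3 CPM in Myc-deleted and 49.9, 71.8 and 56.5 CPM in control libraries (-1.46 ± 0.19 SE, edgeR adjusted p = 0.00200). The glutathione transferase genes Gstm1 (0.97 ± 0.13 SE), Gsta4 (1.495 ± 0.24 SE) and Gsta1 (1.23 ± 0.22 SE) rose (edgeR adjusted p = 0.00245, 0.00528 and 0.00915). These families hold near-identical copies between which the estimated counts may be split. Cyp3a25, Gstm1, Gsta4 and Gsta1 passed in all 6 runs with 1 library omitted. Cyp3a13, an abundant cytochrome of the gut, rose (0.44 ± 0.10 SE, edgeR adjusted p = 0.0207), and the exporter gene Abcb1a was at 889 ± 121 CPM in Myc-deleted and 709.98 ± 61.3 CPM in control libraries and did not pass (0.33 ± 0.11 SE, edgeR adjusted p = 0.120). The other faller, Ugt1a1, which conjugates bilirubin, is named after its values were seen (-0.53 ± 0.11 SE, edgeR adjusted p = 0.0189). Risers numbered 4 when control 2 was omitted, and fallers 1 when control 1 or control 3 was.

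Of 24 targets of ERRα and PGC-1α, 2 fell, 0 rose and 17 had a negative fold change, with a median of -0.21. The list holds genes of the respiratory chain and the citrate cycle, and also genes outside these classes. Cox4i1, a subunit of cytochrome oxidase, fell (-0.30 ± 0.07 SE, edgeR adjusted p = 0.0326), as did Etfdh, which passes electrons from fatty acid oxidation to the chain (-0.27 ± 0.07 SE, edgeR adjusted p = 0.0462). The ATP synthase genes Atp5b (-0.21 ± 0.09 SE, edgeR adjusted p = 0.181) and Atp5a1 (-0.30 ± 0.08 SE, edgeR adjusted p = 0.0575) did not pass. By unadjusted p below 0.05, 12 of the 24 were lower and 0 higher, where 10.4% of all tested genes were lower and 11.7% higher. DESeq2 and limma voom called 0 higher, and the fallers numbered 3 by DESeq2, 4 by limma voom and 5 with upper-quartile scaling, and 2 or 3 with the other scaling and filters. Neither Cox4i1 nor Etfdh passed in any run with 1 library omitted, and fallers of the list numbered 1 when control 3 was omitted and 0 in each of the other 5 runs.

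Of 9 LRH-1 targets, Nr0b2 and Fgf15, the ileal hormone that restrains bile acid synthesis, rose (Fgf15: 453 ± 141 CPM in Myc-deleted and 117 ± 35.8 CPM in control libraries), and both passed in all 6 runs with 1 library omitted. Of 11 retinoic acid targets, Dhrs3, a retinal reductase gene (-0.54 ± 0.12 SE), and Tgm2, a transglutaminase gene (-0.62 ± 0.14 SE), fell, and Rbp2, the retinol binding protein of enterocytes (0.70 ± 0.19 SE), rose (edgeR adjusted p = 0.0276, 0.0295 and 0.0499). Rbp2 did not pass with DESeq2 (adjusted p = 0.0738), limma voom (0.0547), RLE (0.0513) or upper-quartile scaling (0.0596), and of the runs with 1 library omitted it passed only when that was Myc-deleted 1. Fallers of that list numbered 0 for controls 1 and 3 and 1 in each of the other 4 runs. Of 13 LXR targets, Mylip, which degrades the LDL receptor, rose (0.58 ± 0.13 SE, edgeR adjusted p = 0.0254), while the cholesterol importer gene Npc1l1 was at 1159 ± 185 CPM in Myc-deleted and 954 ± 62.8 CPM in control libraries and did not pass (edgeR adjusted p = 0.190). Risers of that list numbered 0 when any control or Myc-deleted 2 was omitted, and fallers 1 for Myc-deleted 3. Of 16 clock genes read by REV-ERB and ROR receptors, Per1 rose and Nfil3, a repressor that REV-ERB controls, fell, at 4.94, 4.55 and 4.52 CPM in Myc-deleted and 14.7, 12.9 and 9.40 CPM in control libraries (-1.40 ± 0.19 SE, edgeR adjusted p = 0.00236). Nfil3 passed in all 6 runs with 1 library omitted, and risers numbered 0 when control 1, control 2 or Myc-deleted 1 was omitted, 3 for control 3 and 2 for Myc-deleted 3.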

How the data were processed

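Polyadenylated RNA of 6 libraries, 3 Myc-deleted and 3 control, was prepared with a stranded kit, per the labels. The deposited values are expected counts per gene, made by the authors with RSEM after cutadapt, STAR and Picard on mm10, per the submitters' processing notes; their versions and the annotation used are not given in the sources used. A symbol in GENCODE M21 was found for 99.1% of the 47643 gene identifiers. Totals were 9956938 to 11328693.

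Rounded counts that passed filterByExpr (at least 10 counts, total of at least 15) were given TMM factors and entered the quasi-likelihood test of edgeR 4.0.16 (R 4.3.3), with p-values adjusted over all tested genes. Dividing the absolute fold change (log2) by the root of F gave the SE. CPM per kilobase used the joined exon length of GENCODE M21. As alternatives served DESeq2 1.42.0, limma 3.58.1 voom, RLE or upper-quartile scaling, 2 other filters, a replicate block and the omission of each library. The procedure was tested on simulated data. The upper limit given for genes without counts covers counting error only. The SE and SD values include the spread between libraries.

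The genes, lists and tests were chosen with earlier results of these data known. Named are all 34 genes, Myc, per list the called genes (up to 4 by lowest p) and the 2 most abundant where of use, and marker genes beside their lists. A single target gene is not reported here. Tabulated promoter windows are those of RefSeq (GRCm38.p6).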

Additional observations from a re-analysis of the deposited data

How the results depend on the processing

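Over the 34 genes, risers numbered 1 with DESeq2, 2 without a filter on low counts, 1 with the replicate number as a block and 0 to 1 without 1 library (0 as reported). Fallers numbered 5 with upper-quartile scaling and 0 to 2 without 1 library (3 as reported). Outside the set, receptor and coregulator risers numbered 2 with DESeq2, limma voom or no filter and 1 to 2 without 1 library, and fallers 1 to 3. Target list genes called without 1 library numbered 8 to 21 higher and 6 to 11 lower (18 and 13 as reported), and all genes called 229 to 503 higher and 233 to 447 lower (537 and 474). Upper-quartile scaling turned the sign of Nr2f6 (-0.017), Rora (-0.010), Ncoa2 (-0.033), Ncor1 (-0.026) and Nrip1 (-0.028), none of which passed. With that scaling the median log2 fold change of all tested genes was also lower, at -0.043 against -0.0021 as reported. Of all genes 449 were then called higher and 591 lower. These sign changes and the added fallers are therefore not results particular to those genes. Without 1 library the log2 fold change, with a change of sign, was -0.0039 to 0.15 for Rara, -0.10 to 0.028 for Nr1h2, -0.027 to 0.057 for Nr2f6, -0.051 to 0.39 for Nr4a1, -0.16 to 0.091 for Nr6a1, -0.081 to 0.0032 for Esrra, -0.20 to 0.17 for Rora, -0.080 to 0.078 for Ncoa2, -0.040 to 0.15 for Ncoa3, -0.061 to 0.071 for Ncor1, -0.060 to 0.062 for Nrip1, -0.072 to 0.048 for Abcg8, -0.12 to 0.0011 for Hnf4a, -0.25 to 0.040 for Scd2 and -0.086 to 0.18 for Txnip. Libraries of equal replicate number had small correlations of their deviations (0.0261, 0.0524 and 0.0189), although each library correlated best with its own number. With 3 libraries per group these values do not settle whether equal numbers pair the libraries. With the replicate block 1 gene of the set was higher (Nr1i3, edgeR adjusted p = 0.0165) and 2 lower, Thrb had an adjusted p of 0.0540 and Nr3c1 of 0.0496, and the fold change of Myc was -0.43. The block also left 0 fallers among the ERRα and PGC-1α targets and gave 3 among the thyroid hormone targets. The causes were not tested. Genes under about 2 CPM, such as Rora and Nr4a2, had an SE of 0.31 to 0.44, so that small differences in them were not detectable at this depth.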
